A study of Rattus norvegicus with 32 samples.

Results

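The genes described here are 10 members of the ATF4-CHOP branch of the integrated stress response, namely Ddit3, Atf4, Atf3, Trib3, Chac1, Sesn2, Nupr1, Ppp1r15a, Ddit4 and Cebpb. They were chosen by their Ang II x Control values in these same arrays, so that values and counts of calls in that comparison describe the choice and test nothing. Of the 26583 gene names on the array, 8 were members under their own name. Sesn2 was reached through its RefSeq accession, under an older array name, and no probe was found for Chac1. The 9 measured genes had 10 probes, of 30367 in all, since Ddit4 had 2. Atf3 was too dim for testing, which left 8 members tested at 3 h and 8 at 6 h.

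RNA was measured on one-colour oligonucleotide arrays in C6 cells, an established rat glioma line, at 3 h and 6 h. At each time there were 4 arrays in each of 4 groups, 32 arrays in all. Control cells received no treatment, and Ang II cells received angiotensin II at 100 nM. In the Ang II+Los group the cells were first kept for 30 min with Losartan, an antagonist of the AT1 receptor, at 10 µM. Ang II+PD123319 cells were instead kept with PD123319, which blocks the AT2 receptor, at the same 10 µM and for the same 30 min. All cells were grown in serum-containing medium to confluence, and no group received an antagonist without Ang II. The 4 arrays with the same replicate number lay on 1 slide, always with Control in position 1 and Ang II in position 2, so that group and position cannot be told apart. No label says whether replicates were separate cultures, and p-values therefore measure the spread between these arrays, which may be partly technical.

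The integrated stress response begins when eIF2 kinases phosphorylate the translation factor eIF2 in answer to unfolded proteins, amino acid shortage, haem shortage or double-stranded RNA. Most translation then slows while the transcription factor ATF4 is translated more, and ATF4 switches on genes for amino acid supply, redox balance and, through CHOP, cell death. Cultured cells are known to engage this programme when their medium runs low in amino acids or glucose, and glioma cells do so under hypoxia as well.

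The C/EBP-ATF composite element through which ATF4 acts was looked for in RefSeq promoters of the GRCr8 build, from 250 bases before to 50 bases after the start of each gene. Promoters were found for 9 of the 10 members. The letters TGATGNAA, the core of that element, occurred on either strand in 3 of these 9, Trib3, Chac1 and Nupr1, and in 3.98% of all 33469 promoters of that length. The cAMP response element TGACGTCA, a related motif read by bZIP factors, occurred in 1, Ppp1r15a, and in 1.83% of all promoters. No member promoter held both. The promoters of the 3 measured members with a match are shown, together with that of Herpud1, the gene whose pattern was most like that of Ddit3, because these letters are the ones ATF4 and its partners are known to read. Each is written 5′ to 3′ along the gene, and capitals mark the match.
Trib3 promoter, chr3:161275484-161275783, minus strand: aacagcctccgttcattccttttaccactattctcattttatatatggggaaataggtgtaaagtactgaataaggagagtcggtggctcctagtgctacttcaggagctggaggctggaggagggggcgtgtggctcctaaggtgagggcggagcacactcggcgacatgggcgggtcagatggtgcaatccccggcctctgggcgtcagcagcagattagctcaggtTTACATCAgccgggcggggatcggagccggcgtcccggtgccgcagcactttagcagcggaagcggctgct
Nupr1 promoter, chr1:190645852-190646151, minus strand: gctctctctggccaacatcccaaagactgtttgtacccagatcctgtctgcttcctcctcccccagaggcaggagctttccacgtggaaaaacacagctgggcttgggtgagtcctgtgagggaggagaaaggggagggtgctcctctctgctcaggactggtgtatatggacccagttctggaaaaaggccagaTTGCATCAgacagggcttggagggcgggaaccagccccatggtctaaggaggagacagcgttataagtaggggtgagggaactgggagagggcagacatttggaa
Ppp1r15a promoter, chr1:105139547-105139846, minus strand: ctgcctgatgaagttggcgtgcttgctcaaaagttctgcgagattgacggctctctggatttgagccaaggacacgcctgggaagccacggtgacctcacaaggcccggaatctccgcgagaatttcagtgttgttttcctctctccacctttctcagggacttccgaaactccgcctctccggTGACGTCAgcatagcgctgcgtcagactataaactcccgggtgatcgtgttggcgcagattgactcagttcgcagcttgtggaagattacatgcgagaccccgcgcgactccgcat
Herpud1 promoter, chr19:10614658-10614957, minus strand: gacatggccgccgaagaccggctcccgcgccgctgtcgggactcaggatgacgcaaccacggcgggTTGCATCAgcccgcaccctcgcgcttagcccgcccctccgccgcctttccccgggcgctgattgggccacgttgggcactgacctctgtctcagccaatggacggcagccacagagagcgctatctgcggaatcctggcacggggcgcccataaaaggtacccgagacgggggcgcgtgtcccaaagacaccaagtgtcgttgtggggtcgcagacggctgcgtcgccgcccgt
The match began 21 bases before the start in Trib3, 55 in Nupr1, 66 in Ppp1r15a and 184 in Herpud1. In Trib3, Nupr1 and Herpud1 it was read from the strand opposite to transcription. The windows of Ddit3, Atf4, Sesn2, Ddit4 and Cebpb held neither motif. A match is a description of the letters, and no binding was measured.

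Between 55.9% and 64.7% of the spots on an array were well above background at 3 h, and between 64.2% and 79.8% at 6 h. Fits were run over 13627 genes at 3 h and 16444 at 6 h, and the arrays of each time were normalised separately, so that levels are compared only within a time. A gene is called past the limits here when its unadjusted p was under 0.05 and its fold was above 1.2 or below 0.8. With Benjamini-Hochberg adjustment over all genes, 0% of genes had an adjusted p under 0.05 in limma in each of the 4 comparisons at each time, while between 1.99% and 21.5% had an unadjusted p under 0.05. With probes held to those well above background on all 16 arrays, 69 genes had an adjusted p under 0.05 in Ang II x Control at 6 h. The number was 328 when replicate 3 was left out, 9 with the deposited values and 1 with no filter. Of 9 glial markers, 7 were well above background on all 16 arrays of either time, S100b, Vim, Nes and Sox2 among them. Gfap, an astrocyte filament gene, reached that level on 0 of 16 arrays at 3 h and 2 of 16 at 6 h. Ptprc, the general leucocyte marker, did so on none, although 4 of 7 markers of microglia and leucocytes were measured on all arrays at 3 h.

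**Figure D1:**
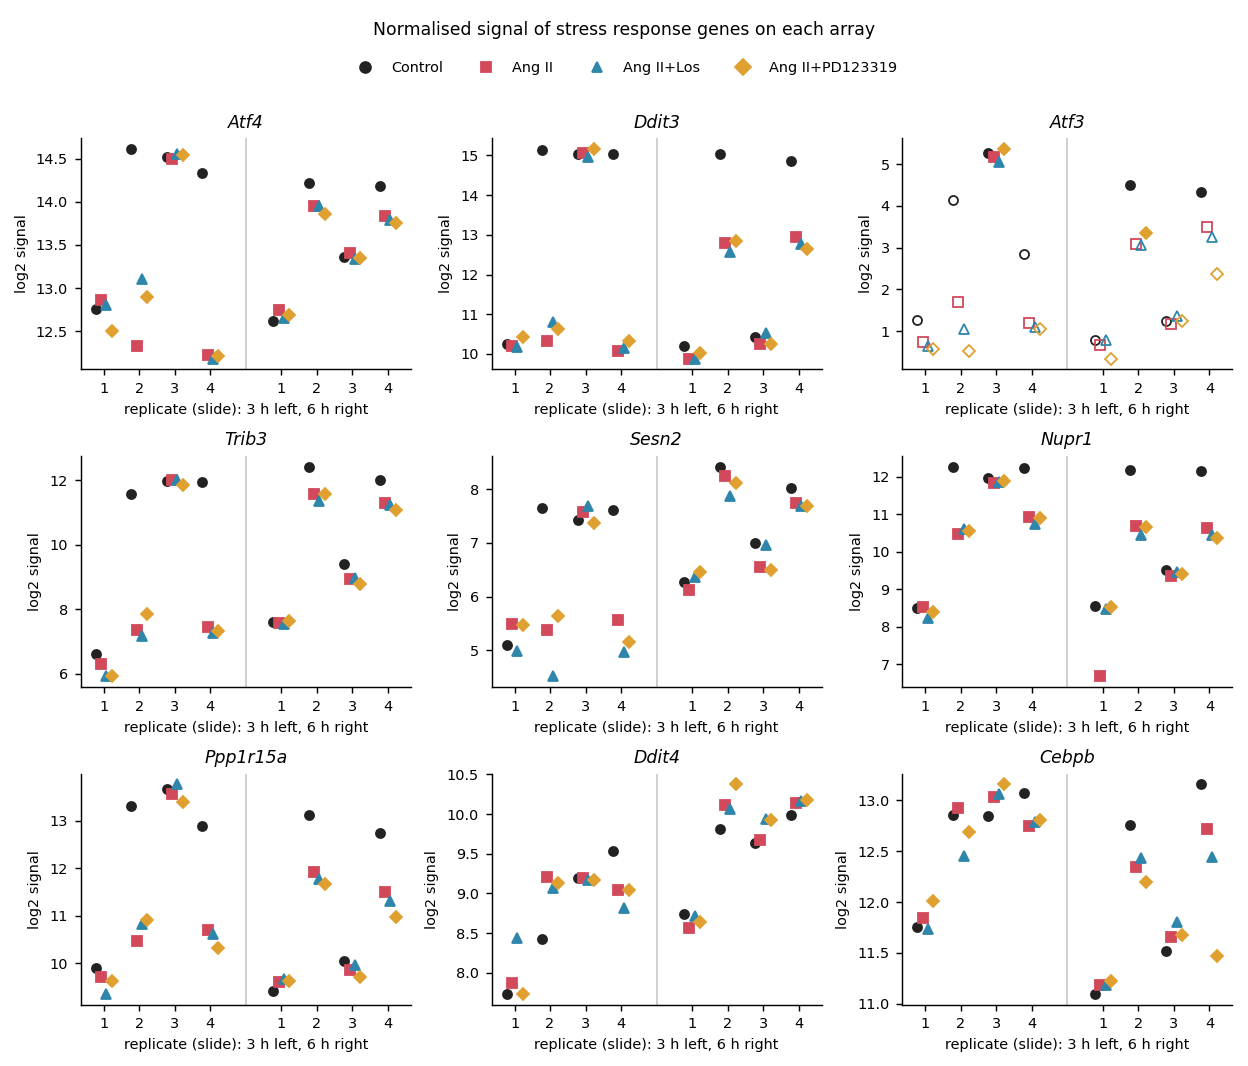
Log2 normalised signal of the 9 measured genes on each of the 32 arrays, by replicate number, which is also the slide, with 3 h on the left and 6 h on the right of each panel. Symbols give the group and are open where the probe was not well above background; in replicates 2 and 4 the Control array stands above the other 3 for Ddit3, Trib3, Nupr1 and Ppp1r15a at both times, and at 3 h all 4 arrays of replicate 3 are high.

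Ddit3 encodes CHOP, the bZIP factor that turns a prolonged stress response towards cell death. At 3 h its log2 signal was 10.25, 15.13, 15.03 and 15.02 in Control replicates 1 to 4 and 10.20, 10.33, 15.05 and 10.08 with Ang II. The 4 slides were thus of 3 kinds, 1 with every array low, 1 with every array high, and 2 with the Control array alone high. Within slides Ang II less Control was -0.05, -4.80, 0.02 and -4.95, and the mean of -2.45 (SE 0.83, n = 4 slides) corresponded to a level 5.45-fold lower. Here and below the SE is that of the limma fit with group and slide, whose spread is pooled over the arrays of all groups of a time. It is not the SE of the slide differences alone, whose SD was 2.80 for Ddit3 at 3 h. The groups overlapped, and their SDs of 2.41 for Control and 2.43 for Ang II were as large as the difference of their means. At 6 h Control had 10.21, 15.03, 10.42 and 14.87, and Ang II had 9.87, 12.80, 10.26 and 12.95. Replicates 2 and 4 again held the high Control arrays, but here the Ang II arrays of these slides lay between the low and the high level. The mean difference at 6 h was -1.16 (SE 0.37, n = 4), or 2.24-fold lower. In such bulk RNA, fewer cells with the message and less of it in each cell cannot be told apart.

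Atf4 encodes the factor at the head of this branch, and its activity is known to be set mostly by translation. At 3 h Control arrays gave 12.75, 14.61, 14.52 and 14.33, and Ang II arrays gave 12.86, 12.33, 14.50 and 12.22. As for Ddit3, only replicates 2 and 4 differed, by -2.28 and -2.11, and the mean was -1.08 (SE 0.37, n = 4). The SD of the slide differences was 1.29. At 6 h these slides differed by -0.27 and -0.35, and the mean was -0.11 (SE 0.09, n = 4). Whether the Ang II x Control difference of Atf4 itself changed with time was not tested.

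Atf3, another bZIP factor switched on by ATF4, was near background. At 3 h it was well above background on the 4 arrays of replicate 3, with log2 signals of 5.26, 5.18, 5.05 and 5.36 in Control, Ang II, Ang II+Los and Ang II+PD123319, and on no other array. At 6 h it was so on the Control arrays of replicates 2 and 4, at 4.49 and 4.34, and on 1 Ang II+PD123319 array, at 3.35. On each of these arrays Ddit3 was at 12.83 or higher. The converse did not hold. Ddit3 was at 15.13 and 15.02 on the 3 h Control arrays of replicates 2 and 4, and at 12.95 on the 6 h Ang II array of replicate 4. On none of these was Atf3 well above background. No fold is given, since the remaining arrays hold only a bound.

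Cebpb encodes C/EBPβ, a bZIP factor that pairs with ATF4 and CHOP. At 3 h it gave 11.75, 12.86, 12.85 and 13.07 in Control and 11.84, 12.92, 13.03 and 12.75 with Ang II. Replicate 1 was lowest in every group, but Ang II less Control lay between -0.32 and 0.18 on every slide. Its mean difference was 0.01 (SE 0.13, n = 4) at 3 h and -0.15 (SE 0.23, n = 4) at 6 h.

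Trib3, a pseudokinase switched on by ATF4 and CHOP and known to restrain them, followed Ddit3 closely. At 3 h its log2 signal was 6.62, 11.58, 11.99 and 11.95 in Control and 6.32, 7.35, 12.00 and 7.45 with Ang II. The differences in replicates 2 and 4 were -4.23 and -4.50, against -0.30 and 0.01 in replicates 1 and 3, with an SD of 2.44. The mean was -2.26 (SE 0.73, n = 4), or 4.77-fold lower. At 6 h Control gave 7.59, 12.43, 9.39 and 12.02, and Ang II gave 7.59, 11.58, 8.94 and 11.29. The mean difference was -0.50 (SE 0.15, n = 4), and the slides gave -0.84, -0.45 and -0.72 in replicates 2 to 4 with next to no difference in replicate 1.

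Ppp1r15a encodes GADD34, the phosphatase subunit that reverses the phosphorylation of eIF2 and so closes the response. It gave 9.91, 13.31, 13.68 and 12.90 in Control at 3 h and 9.72, 10.46, 13.56 and 10.71 with Ang II. The mean difference was -1.34 (SE 0.42, n = 4) at 3 h. Slides gave 0.18, -1.20, -0.18 and -1.26, with a mean of -0.61 (SE 0.27, n = 4), at 6 h.

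Nupr1 encodes a small nuclear protein switched on by many stresses. At 3 h Control gave 8.51, 12.27, 11.96 and 12.25 and Ang II gave 8.54, 10.48, 11.83 and 10.93, with a mean difference of -0.80 (SE 0.27, n = 4). At 6 h Control gave 8.56, 12.19, 9.51 and 12.14 and Ang II gave 6.68, 10.68, 9.36 and 10.63. The mean was -1.26 (SE 0.37, n = 4), but here replicate 1 contributed as well, with a difference of -1.88. Its Ang II array stood alone on that slide, since Ang II+Los gave 8.48 and Ang II+PD123319 gave 8.54. Without replicate 1 the 6 h difference of Nupr1 was -1.06.

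Sesn2 and Ddit4 both encode proteins that restrain the growth kinase mTORC1. For Sesn2 the Control arrays gave 5.09, 7.65, 7.43 and 7.62 at 3 h and the Ang II arrays 5.50, 5.38, 7.57 and 5.57. Its mean difference was -0.94 (SE 0.49, n = 4) at 3 h, which the normexp background correction brought to -0.42, and -0.26 (SE 0.13, n = 4) at 6 h. The Sesn2 probe rests on its accession alone, and it maps to the plus strand in rn4 while RefSeq places the gene on the minus strand of GRCr8. Ddit4 did not share the pattern. It gave 7.73, 8.42, 9.19 and 9.54 in Control at 3 h and 7.87, 9.21, 9.20 and 9.05 with Ang II, so that replicates 2 and 4 differed in opposite directions, by 0.79 and -0.49. The mean difference of Ddit4 was 0.11 (SE 0.21, n = 4) at 3 h and 0.08 (SE 0.09, n = 4) at 6 h, and its 2 probes gave 0.02 and 0.21 at 3 h.

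Counted together, 5 of 8 members were past the limits and lower in Ang II x Control at 3 h, Ddit3, Atf4, Trib3, Nupr1 and Ppp1r15a, and 4 of 8 at 6 h, the same genes without Atf4. None was past the limits and higher. Among all genes the shares were 5.98% lower and 5.04% higher at 3 h, and 4.68% lower and 6.78% higher at 6 h. Scaling each array to its 75th percentile moved the share of lower genes among all calls from 54.3% to 76.9% at 3 h and from 40.8% to 55.8% at 6 h, and left the 5 members at 3 h and the 4 at 6 h lower. Since the members were chosen on these values, their counts follow from the choice, and nothing is read from them beside the shares of all genes. The median difference of the 8 was -1.01 at 3 h and -0.38 at 6 h, against 0.0022 and -0.0058 over all genes. By the methods' t-test, paired by slide as the series record has it, 0 of 8 members passed at 3 h and 1 of 8 at 6 h, and without the slide as a block 0 of 8 passed at either time. Without replicate 2, and likewise without replicate 4, the count was 0 of 8 at 3 h and 2 of 8 at 6 h. On the slides of replicates 1 and 3 alone, a split made after the values were seen, 0 of 8 passed at either time. Within scans the 3 h difference of Ddit3 was -2.43 in one and -2.46 in the other, each of which held 1 slide with the difference and 1 without. At 6 h it was -0.91 over the 3 slides of one scan and -1.92 on the single slide of the other.

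**Figure D2:**
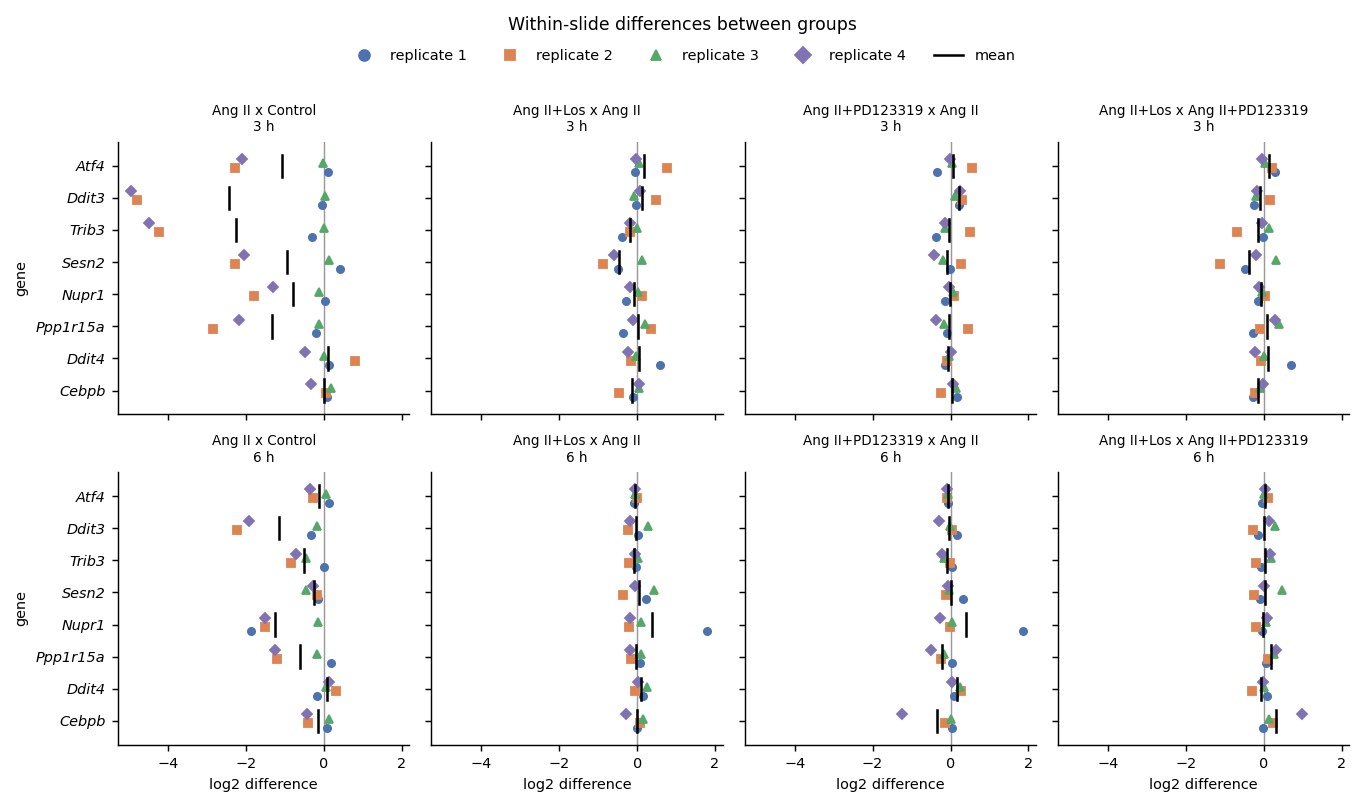
Log2 difference between groups on each slide (symbols, by replicate number) and its mean (bar) for the 8 tested members, in 4 comparisons at 3 h (top) and 6 h (bottom). For Ddit3 and Trib3 at 3 h the Ang II x Control differences fall into 2 slides at -4.23 or lower and 2 slides near 0, while the antagonist comparisons stay within 1 log2 unit of 0 apart from Sesn2 replicate 2 at 3 h (-1.13, Losartan against PD123319) and Nupr1 replicate 1 and Cebpb replicate 4 at 6 h.

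The antagonist groups were set beside Control as well, which uses the same Control arrays. Ddit3 in Ang II+Los gave 10.17, 10.80, 14.97 and 10.15 at 3 h, and in Ang II+PD123319 10.42, 10.63, 15.16 and 10.32. Both groups therefore held the same single high array as Ang II, that of replicate 3. Their means lay below Control by -2.33 with Losartan and -2.23 with PD123319, beside -2.45 with Ang II alone. For Trib3 the 3 values were -2.45, -2.29 and -2.26, and for Ppp1r15a they were -1.31, -1.38 and -1.34 in the same order. Atf4 gave -0.89, -1.02 and -1.08, Nupr1 gave -0.88, -0.81 and -0.80, and Sesn2 gave -1.41, -1.04 and -0.94.

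At 6 h the 3 groups with Ang II were likewise close to each other for Ddit3, Ppp1r15a and Trib3. They were less close for Nupr1 and Cebpb. Mean log2 signals of Cebpb were 12.13 in Control, 11.98 with Ang II, 11.97 in Ang II+Los and 11.64 in Ang II+PD123319. Ddit3 in Ang II+Los gave 9.88, 12.56, 10.53 and 12.78 and in Ang II+PD123319 10.04, 12.83, 10.25 and 12.65. It lay below Control by -1.20 with Losartan, -1.19 with PD123319 and -1.16 with Ang II alone. Nupr1 differed from Control by -0.89, -0.86 and -1.26, Ppp1r15a by -0.66, -0.84 and -0.61, and Trib3 by -0.58, -0.60 and -0.50. Ddit4 alone was above Control in all 3, by 0.18, 0.24 and 0.08.

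The comparisons with Ang II ask which changes depend on the AT1 or the AT2 receptor, and are called here the Losartan comparison (Ang II+Los x Ang II) and the PD123319 comparison (Ang II+PD123319 x Ang II). With Losartan at 3 h, 0 of 8 members passed the limits, where 4.67% of all genes were higher and 5.42% lower. Ddit3 differed by 0.11 (SE 0.83, 95% interval -1.69 to 1.92; adjusted p = 0.956 by limma), and the lowest adjusted p among the members was 0.610, for Cebpb. At 6 h again 0 of 8 passed, where 0.535% of all genes were higher and 0.365% lower, and Ddit3 differed by -0.03 (95% interval -0.85 to 0.78). In the PD123319 comparison 0 of 8 passed at 3 h, where 2.02% of all genes were higher and 0.624% lower, and 0 of 8 at 6 h, with 2.57% higher and 1.22% lower. Ddit3 differed by 0.22 (95% interval -1.59 to 2.03) at 3 h and by -0.03 (95% interval -0.85 to 0.79) at 6 h. No member had an unadjusted p under 0.05 in any of these 4 comparisons when all 16 arrays of a time shared one spread.

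These intervals take much of their width from the Control arrays of replicates 2 and 4, which are not among the arrays compared. Within slides Ddit3 at 3 h differed by -0.02, 0.47, -0.08 and 0.07 with Losartan and by 0.22, 0.31, 0.11 and 0.24 with PD123319, so that the latter was higher on 4 of 4 slides. Fitted on the 8 arrays of a comparison alone, the 95% interval of Ddit3 at 3 h was -0.26 to 0.48 with Losartan and 0.01 to 0.43 with PD123319, and at 6 h it was -0.27 to 0.21 and -0.25 to 0.19. A 2-fold change of Ddit3, 1 log2 unit, lay outside all 4. In that fit Ddit3 had an unadjusted p of 0.0421 with PD123319 at 3 h (adjusted p = 0.755 by limma), at a fold short of 1.2. Of all genes 6.27% had an unadjusted p under 0.05 there. Sesn2 was past the limits with Losartan at 3 h, at -0.46 and lower on 3 of 4 slides (adjusted p = 0.680 by limma), where 3.02% of all genes had an unadjusted p under 0.05. At 6 h with PD123319 Ddit4 was higher on 4 of 4 slides, by 0.16 (unadjusted p = 0.0494, adjusted p = 0.473 by limma). Its probes gave 0.09 and 0.23. In the same comparison 1731 of 16444 genes had an unadjusted p under 0.05. Atf4 was lower there on 4 of 4 slides, by -0.07 (adjusted p = 0.553 by limma). No member had an adjusted p under 0.05 in that fit. The Ang II arrays also enter the comparison on which the genes were chosen, and these p-values are not independent of that choice.

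Some single arrays stood out. Nupr1 at 6 h differed by 1.80 in the Losartan comparison and by 1.86 in that of PD123319 on replicate 1, because of the low Ang II array there, and by -0.27 to 0.10 on the other slides. Cebpb at 6 h was 11.47 in Ang II+PD123319 replicate 4, against 12.72 with Ang II and 13.16 in Control on that slide. Its PD123319 comparison gave -1.25 there and between -0.15 and 0.04 elsewhere, and the mean was -0.34 (SE 0.23; adjusted p = 0.872 by limma).

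Losartan and PD123319 could be compared directly, on arrays that did not enter the choice, though normalised together with those that did. They block different receptors and were given at the same dose and time. When Ang II+Los was set against Ang II+PD123319, 0 of 8 members passed the limits at 3 h, where 7.1% of all genes were higher and 6.1% lower, and 0 of 8 at 6 h, with 2.14% higher and 2.03% lower. At 3 h Ddit3 differed by -0.11, Trib3 by -0.16 and Atf4 by 0.12. With the spread of all 16 arrays, Control included, the 95% intervals were -1.92 to 1.70, -1.75 to 1.42 and -0.69 to 0.93. On the 8 arrays compared they were -0.41 to 0.19 for Ddit3, -0.57 to 0.25 for Trib3 and -0.16 to 0.41 for Atf4. At 6 h the intervals on the 8 arrays were -0.28 to 0.27 for Ddit3, -0.20 to 0.24 for Trib3 and -0.12 to 0.16 for Atf4. Ppp1r15a was higher with Losartan on 4 of 4 slides at 6 h, by 0.18 (unadjusted p = 0.0444 on the 8 arrays, adjusted p = 0.488 by limma), where 10.1% of all genes had an unadjusted p under 0.05. With all 16 arrays adjusted p-values by limma lay between 0.505 and 0.953 at 3 h and between 0.799 and 0.999 at 6 h. The change between 3 h and 6 h in the antagonist comparisons was tested for 8 members in 3 comparisons, and 0 of 24 tests had an adjusted p under 0.05. The lowest unadjusted p of these was 0.0939, for Cebpb in the direct comparison of both antagonists (adjusted p = 0.423 by limma).

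**Figure D3:**
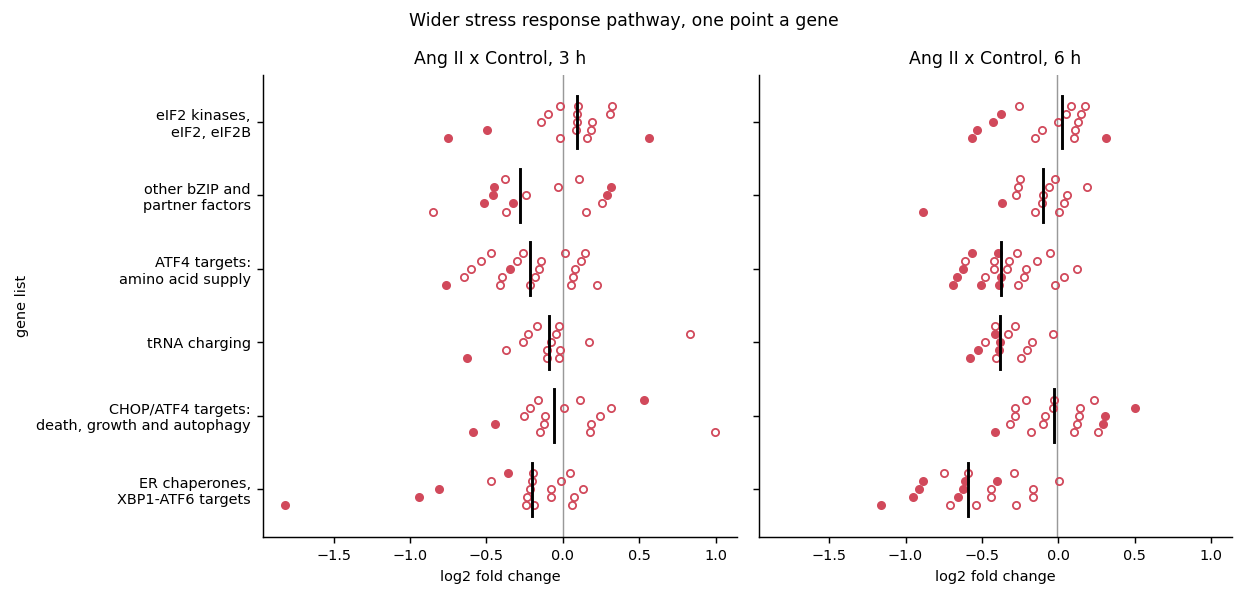
Log2 fold change in Ang II x Control of the tested genes of 6 lists around the stress response, at 3 h and 6 h, one point a gene. Filled points are past the limits, black bars are list medians and the grey line is the median of all genes; at 6 h the amino acid, tRNA charging and chaperone lists have medians of -0.38, -0.38 and -0.59.

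The genes around the members were taken as 6 lists with 118 genes, of which 99 were tested at 3 h and 105 at 6 h. In Ang II x Control 15 of 99 were past the limits and lower and 4 higher at 3 h, with a median of -0.11. At 6 h 28 of 105 were lower and 4 higher, with a median of -0.27. The shares of all genes, 5.98% lower and 5.04% higher at 3 h and 4.68% and 6.78% at 6 h, stand beside every count of these lists. None had an adjusted p under 0.05, and the lists were made with earlier results of these arrays known. Without replicate 2 the calls in either direction came to 6 at 3 h and 3 at 6 h, without replicate 4 to 7 and 3, and without replicate 1 to 60 at 6 h. Over all genes the share past the limits in either direction went from 11% at 3 h to 5.53% without replicate 2 and 5.65% without replicate 4, and from 11.5% at 6 h to 8.33%, 7.44% and, without replicate 1, 13.1%.

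Among the eIF2 kinases and the eIF2 and eIF2B subunits, the sensors and the target of the response, 2 of 16 were lower and 1 higher at 3 h. Eif2ak3, the kinase PERK of the endoplasmic reticulum, differed by -0.49 (SE 0.17; adjusted p = 0.337 by limma), with -0.19, -0.80, -0.28 and -0.70 on the 4 slides. Ppp1r15b, the constitutive counterpart of GADD34, differed by -0.75 (SE 0.29) and Eif2b1, a regulatory subunit of eIF2B, by 0.57 (SE 0.17). At 6 h 4 of 16 were lower and 1 higher. Ppp1r15b differed by -0.43 (SE 0.15), Eif2b3, from the catalytic part of eIF2B, by -0.56 (SE 0.22) and Eif2ak2, the kinase PKR, by 0.31 (SE 0.14).

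Of the other bZIP and partner factors 4 of 14 were lower and 2 higher at 3 h. Creb3, a membrane-bound bZIP factor, differed by -0.33 (SE 0.11), Atf1 by 0.32 (SE 0.14) and Jund by 0.29 (SE 0.12). At 6 h 2 of 14 were lower, Cebpd by -0.37 (SE 0.10) and Atf6, a membrane-bound sensor of unfolded proteins, by -0.89 (SE 0.28).

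Targets of ATF4 in amino acid supply gave 2 of 21 lower at 3 h and 8 of 23 at 6 h, none higher. Slc7a11, the cystine transporter, differed by -0.35 (SE 0.11) at 3 h and -0.67 (SE 0.24) at 6 h, and Slc7a1, which carries arginine and lysine, by -0.76 (SE 0.24) and -0.39 (SE 0.14). The serine synthesis genes Phgdh and Psph were lower at 6 h, by -0.38 (SE 0.10) and -0.56 (SE 0.20). Psph showed the slide pattern of the members, with -0.04, -1.15, -0.11 and -0.95 in replicates 1 to 4. For tRNA charging, 1 of 14 was lower at 3 h, Cars by -0.63 (SE 0.21), which is named for being the single one. At 6 h 5 of 14 were lower, and 14 of 14 had a value below 0, with a median of -0.38, where 51.3% of all genes were below 0. All 14 were below 0 at 6 h in the Losartan and PD123319 comparisons as well, with medians of -0.07 and -0.12, and none of them past the limits. Of all genes 50.5% and 51.5% were below 0 there. Both comparisons use the same Ang II arrays, and the genes of a list are not independent. Aars, which charges the tRNA for alanine, differed by -0.39 (SE 0.09; adjusted p = 0.0826 by limma) and Cars, that for cysteine, by -0.42 (SE 0.14).

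Chaperones of the endoplasmic reticulum and targets of XBP1 and ATF6, which answer unfolded proteins beside the ATF4 branch, gave 4 of 18 lower at 3 h and 8 of 19 at 6 h, none higher. At 3 h Dnajb9, a co-chaperone of BiP, differed by -0.94 (SE 0.30) and Syvn1, the ubiquitin ligase of the reticulum, by -0.81 (SE 0.23). Herpud1, a component of that ligase complex, is named for its size after its values were seen, at -1.82 (SE 0.69). At 6 h Herpud1 differed by -0.91 (SE 0.33) and the lectin chaperone Calr by -0.40 (SE 0.16). The Herpud1 difference lay in the same slides, with -0.15, -1.87, -0.05 and -1.58. Of the CHOP and ATF4 targets in death, growth and autophagy, 2 of 16 were lower and 1 higher at 3 h, and 1 of 19 lower and 3 higher at 6 h. The genes at 3 h were Bbc3, the death gene PUMA, at -0.44 (SE 0.19), Vegfa, a growth factor for vessels, at -0.59 (SE 0.25) and Jmjd6 at 0.53 (SE 0.23), all 3 named after their values were seen. Wipi1, which acts in the building of autophagosomes, differed by 0.30 (SE 0.07; adjusted p = 0.0776 by limma) at 6 h and Ndrg1, a gene known to answer hypoxia, by 0.29 (SE 0.09).

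In the Losartan comparison 8 of 99 genes were lower and none higher at 3 h, beside 5.42% and 4.67% of all genes, and the list median of -0.17 was farther from 0 than that in Ang II x Control. Jdp2, a bZIP repressor, differed by -1.79 (SE 0.73), with -3.14, -3.34, -0.25 and -0.44 on the slides, Gpt2, an alanine aminotransferase, by -0.74 (SE 0.26) and Lars, which charges the tRNA for leucine, by -0.65 (SE 0.27). Ndrg1 differed by -0.36 (SE 0.14). Without replicate 2 the count was 0, where 1.62% of all genes passed against 10.1% with all slides. Sesn1, a relative of Sesn2, was the 1 gene of 105 past the limits at 6 h in the Losartan comparison, by -0.40 (SE 0.18), and in the PD123319 comparison, by -0.42 (SE 0.18), beside 0.365% and 1.22% of all genes lower, and both use the same Ang II arrays. No gene of the lists passed in the PD123319 comparison at 3 h. Between both antagonists 8 of 99 were lower and 3 higher at 3 h, beside 6.1% and 7.1% of all genes, so that the counts are near or below those shares. Of the 11 genes, Jdp2 differed by -1.92 (SE 0.73), Ndrg1 by -0.48 (SE 0.14) and Ero1l, an oxidase of the reticulum switched on by CHOP, by 0.29 (SE 0.09). The stress kinase genes Eif2ak1 and Eif2ak3 differed by 0.31 and 0.40, the eIF2B subunit gene Eif2b4 by -0.32, the bZIP gene Atf5 by -0.34, Gpt2 by -0.59 and the sestrin gene Sesn3 by -0.86. Without replicate 1 the calls came to 2 and without replicate 2 to 3, where 2.95% and 2.5% of all genes passed against 13.2% with all slides. At 6 h 0 of 105 passed.

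**Figure D4:**
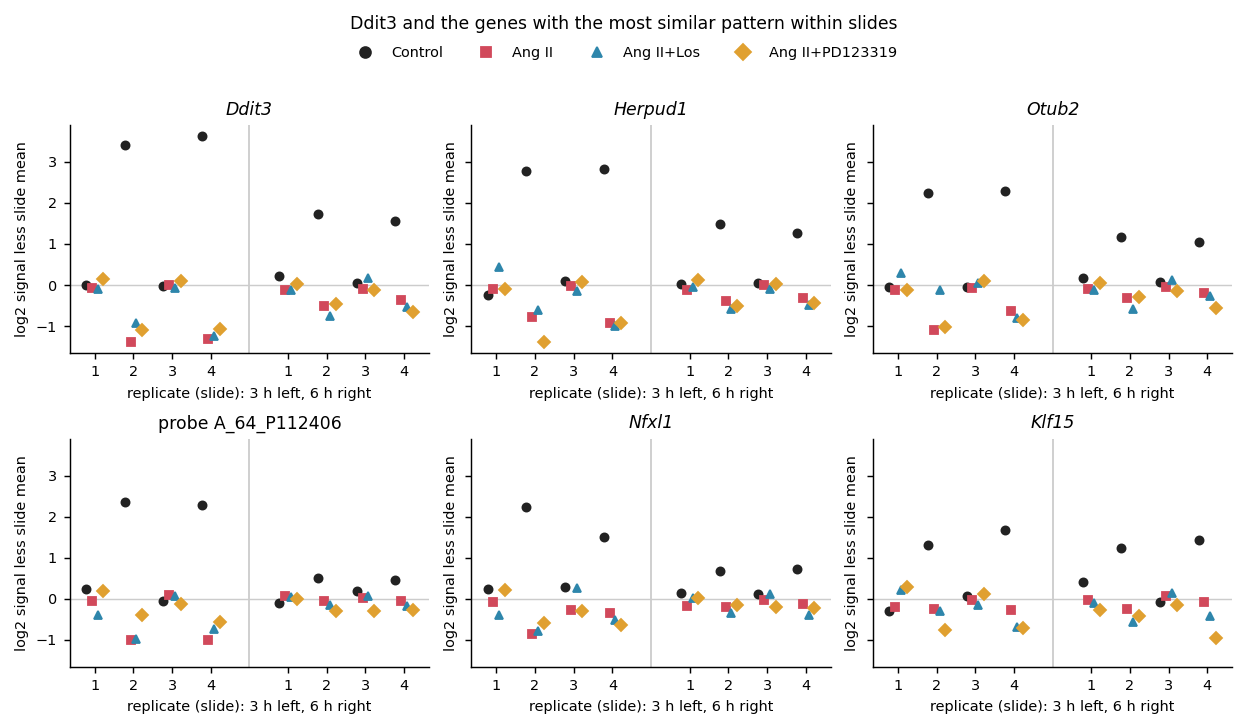
Log2 signal of Ddit3 and of the 5 genes most like it, less the mean of the 4 arrays of the slide, on all 32 arrays, by replicate number with 3 h on the left and 6 h on the right. In every panel the Control arrays of replicates 2 and 4 lie above the other 3 arrays of their slide. On replicates 1 and 3 the 4 arrays lie within 0.43 log2 units of 0. For probe A_64_P112406 at 6 h the Control arrays of replicates 2 and 4 lie little farther, at 0.50 and 0.47.

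The genes closest to Ddit3 were sought by the root-mean-square difference of log2 signals from Ddit3, after the mean of each slide was taken off, over 32 arrays and 276 genes whose spread was at least 0.5 of that of Ddit3. Herpud1 was nearest, at 0.29 log2 units. Its Control arrays gave 9.75, 13.19, 13.24 and 12.90 at 3 h and its Ang II arrays 9.88, 9.64, 13.11 and 9.17, so that replicate 3 was high in both groups as for Ddit3. Next came Otub2, a deubiquitinase, at 0.42, a probe with no gene name (A_64_P112406) at 0.51, Nfxl1, a zinc finger gene, at 0.59 and Klf15, a zinc finger factor of amino acid and glucose metabolism, at 0.63. Of the members Trib3 was closest, at 0.35, followed by Ppp1r15a at 0.54, Sesn2 at 0.68, Atf4 at 0.72 and Nupr1 at 0.75. Cebpb at 1.04 and Ddit4 at 1.18 were farthest. Since signals were not scaled, this distance depends on the size of the differences as well as on their pattern. Members were ranked without the limit on spread, which Atf4, Cebpb and Ddit4 did not reach. Their SDs within slides were 0.46, 0.26 and 0.20, against 1.15 for Ddit3. The slide means taken off in this measure were themselves far apart. The probe for Ddit3 (rn4 chr7:67252505-67252564, plus strand) and that for Trib3 (rn4 chr3:142664936-142664995, minus strand) are placed on different chromosomes. Whether either probe also binds other transcripts was not tested.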

How the data were processed

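Single-colour Agilent arrays of total RNA were read from the scanner files. Per the labels, the authors extracted spots with Agilent Feature Extraction 9.5.3.1, and the deposited intensity columns hold background-subtracted processed signals, their errors, means and local backgrounds. The deposited log2 values equalled log2 of the processed signal in 100% of 561803 values compared, within 1e-06, and 38.2% of that table was blank. Members and gene lists were chosen with earlier results of these data known.

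Outlier spots were left out. At 3 h dim spots took the error of their signal, and at 6 h the surrogate of the software was kept. Spots of a probe were averaged, probes with over 2 gaps were dropped, and log2 signals were normalised by cyclic loess (3 iterations, span 0.7) over the 16 arrays of a time. A probe was kept if well above background on all 4 arrays of a group, and probes of a gene were averaged. limma 3.58.1 (R 4.3.3) was fitted with group and slide. Same-numbered arrays shared a slide, and their deviations from group means correlated at 0.15 to 0.92 at 3 h and 0.55 to 0.83 at 6 h. Past the limits means an unadjusted p under 0.05 with a fold above 1.2 or below 0.8. The fit was tried on simulated data with independent noise and a shift shared by all Ang II arrays. Differences carried by only some slides, like those of the members, were not simulated.

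All members were named. Of the lists, genes past the limits with the same sign on all 4 slides were named, up to the 6 lowest p of a list, with exceptions stated. Alternatives were no slide block, the methods' t-test (paired, as the series record has it), 2 scalings, normexp background (offset 50), 2 filters, the brightest probe, 8 arrays alone, the deposited values and each replicate left out. The number of arrays limits the precision.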

Additional observations from a re-analysis of the deposited data

Results flagged for a closer look

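In the 64 sets of 4 replicate arrays formed by the 8 tested members in the 8 groups, 14 had an array whose gap to the nearest other was above Dixon's 95% critical value as a share of the range, where chance gives about 1 in 20 independent sets. These sets are not independent, since the genes vary together on the same arrays, and the Control and Ang II arrays among them chose the genes, so that the number is a description only. Control replicate 1 at 3 h gave 6 of the 14, and replicate 3 at 3 h gave 5. Of these, 13 were at 3 h. In Control at 3 h it was replicate 1, lower than the others, for Ddit3 (log2 signal 10.25), Atf4 (12.75), Trib3 (6.62), Sesn2 (5.09), Nupr1 (8.51) and Cebpb (11.75). With Ang II at 3 h it was replicate 3, higher than the others, for Ddit3 (15.05) and Sesn2 (7.57), and replicate 1, lower, for Ddit4 (7.87). In Ang II+Los at 3 h replicate 3 was high for Ddit3 (14.97) and Sesn2 (7.69). In Ang II+PD123319 at 3 h replicate 3 was high for Ddit3 (15.16) and replicate 1 low for Ddit4 (7.73). At 6 h the one such array was Ang II+Los replicate 1 for Ddit4, at 8.72.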

How the results depend on the processing

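Most Ang II x Control calls were lost without the slide block, and most were also lost in the t-test paired by slide. Without the replicate block 0 of 8 members passed the limits at 3 h and 0 at 6 h, and 0 and 3 genes of the wider lists. The methods' t-test, paired by slide, gave 0 and 1 members and 4 and 2 list genes. The deposited log2 values, which held 5 tested members at 6 h, gave 1 member there. On the slides of replicates 1 and 3 alone, chosen after seeing the data, no member passed at either time, 0 and 4 list genes did, and Atf4 at 3 h (0.042) and Ppp1r15a at 6 h (0.0012) changed sign. Leaving out 1 replicate gave 0 to 6 members at 3 h and 2 to 4 at 6 h, and 6 to 22 and 3 to 60 list genes. With the 8 arrays of the comparison alone the lists gave 16 at 6 h.

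With Losartan against Ang II at 3 h the 8 list genes became 0 without the block, 0 by the methods' t-test, 3 with normexp, 5 with each other filter, 3 with 8 arrays alone, 2 with the deposited values, 0 on replicates 1 and 3, and 0 to 10 with 1 replicate left out. With 8 arrays alone 1 member passed there. At 6 h the single list gene became 0 without the block, by the methods' t-test, with quantile scaling, normexp or either filter, 2 with the deposited values and 0 to 1 with 1 replicate left out. With PD123319 against Ang II the lists gave 1 at 3 h with no filter and 1 with 8 arrays alone. At 6 h the single gene became 0 without the block, with normexp, with the strict filter and on replicates 1 and 3, 4 with 8 arrays alone, 2 with the deposited values and 0 to 2 with 1 replicate left out. Between both antagonists the 11 at 3 h became 0 without the block, 1 by the methods' t-test, 4 with 8 arrays alone, 4 with the deposited values, 0 on replicates 1 and 3 and 2 to 15 with 1 replicate left out, and at 6 h the lists gave 1 with no filter, 2 with 8 arrays alone and 0 to 2 with 1 replicate left out. The causes were not tested.

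Outside these, no member count left 1.5 times its value, and the Ang II x Control difference of Ddit3 stayed between -2.52 and -2.45 at 3 h and between -1.19 and -1.11 at 6 h over the other settings with 4 slides. Sesn2 at 3 h moved from -0.94 to -0.42 with normexp and to -0.50 and -0.58 without replicates 2 and 4. Ddit4 at 3 h moved to -0.45 with the deposited values. Probes near background, such as that of Atf3, are limited by their signal.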
